A study of Mus musculus with 8 samples.

Results

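The genes studied here are 10 genes of MHC class II antigen presentation, namely Cd74, H2-Aa, H2-Ab1, H2-Eb1, H2-DMa, H2-DMb1, H2-DMb2, H2-Oa, H2-Ob and Ciita. They were taken by symbol from the mRNA table, where all 10 of the 10 were found among 22298 genes. Class II molecules are heterodimers of an α and a β chain that carry peptides from endosomes to the cell surface, where CD4+ T cells read them. The invariant chain escorts the new dimers and blocks their groove, H2-M exchanges its remnant for other peptides, and H2-O restrains H2-M. Ciita encodes the coactivator that switches these genes on through factors bound at their promoters, and class II is a known feature of B cells and other antigen-presenting cells.

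Bone marrow B-lineage cells of wild-type female C57BL/6 mice, aged 8 to 10 weeks, were sorted as viable cells into 4 stages. Pro-B cells were gated as B220+IgM-CD43+, pre-B cells as B220+IgM-CD43-, immature B cells as B220+IgM+CD43- and mature B cells as B220hi IgM+CD43-. Cells of 3 mice were pooled for the 1 RNA library of each stage, so no difference below has a replicate check. The mRNA columns held 867920 estimated counts in pro-B, 240231 in pre-B, 223495 in immature B and 849350 in mature B cells.

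The level of 3 counts corresponded to 3.46, 12.5, 13.4 and 3.53 CPM (counts per 1000000 of the mRNA column) in the same order, so that low values were least certain in pre-B and immature B cells. The mRNA table took 23.7%, 6.48%, 6.48% and 23.5% of the counts of the mRNA and lncRNA tables together. The summed markers of most stages were highest in the library of that label. The summed level of 6 pro-B markers was 2321 CPM in pro-B cells and at most 179 CPM in the other libraries, and that of 7 mature B markers was 5110 CPM in mature B cells and at most 1315 CPM elsewhere. The summed level of 4 immature B markers was highest in immature B cells, at 9504 CPM, beside 7530 CPM in pre-B cells. Ighm made up most of it, at 7816 CPM in immature B and 7147 CPM in pre-B cells. Igkc and Ms4a1 were also highest in immature B cells, at 579 and 1016 CPM, but Cd93 was highest in pro-B cells, at 429 CPM. The 4 pre-B markers, in contrast, summed to 1278 CPM in pro-B and 1066 CPM in pre-B cells, with Rag1 at 918 and 372 CPM. The 7 B-lineage markers summed to between 4359 and 5964 CPM, but single genes moved in opposite directions. Ptprc had 290, 39.1, 69.8 and 676 CPM from pro-B to mature B cells, and Cd79b had 780, 2073, 2707 and 925 CPM.

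Most members lie side by side. In RefSeq's GRCm38.p6, 8 of the 10 lie within 224 kb of chromosome 17, from H2-Oa at chr17:34092379-34095234 to H2-Eb1 at chr17:34305867-34316674. Ciita lies at chr16:10480014-10531064, and Cd74 on another chromosome.

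Class II promoters are known for a module of an X box, bound by RFX and CREB proteins, and a Y box, bound by NF-Y, to which the Ciita protein is recruited. Promoter sequences of RefSeq, from 250 bases before to 50 bases after a start site, were matched for 7 of the 10 members. Cd74, H2-Ab1 and Ciita were not matched. Both strands were searched for AACNNATG as the core of the X box and for ATTGG as the Y box, which do not overlap in the members. The following 60-base stretches are shown because they hold both letter groups in the same order, or, for H2-Aa, the Y box with no X core letters, and capitals mark the X core and the Y box.
H2-DMb2: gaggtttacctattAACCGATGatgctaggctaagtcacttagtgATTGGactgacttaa
H2-DMb1: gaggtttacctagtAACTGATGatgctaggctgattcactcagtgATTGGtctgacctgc
H2-Ob: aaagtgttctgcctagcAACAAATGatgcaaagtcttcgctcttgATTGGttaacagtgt
H2-Eb1: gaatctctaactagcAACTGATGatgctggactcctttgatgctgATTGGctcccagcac
H2-Aa: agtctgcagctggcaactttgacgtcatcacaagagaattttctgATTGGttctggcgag

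These stretches lie at chr17:34145114-34145173, chr17:34153085-34153144, chr17:34238803-34238862 and chr17:34305763-34305822 on the plus strand, and for H2-Aa at chr17:34287857-34287916 on the minus strand, all in GRCm38.p6. The Y box was found in a promoter of all 7 genes, and in 37.4% of the 32851 promoters in the table. The X core was found in 4 of the 7 and in 8.86% of all promoters. Only the exact letters were searched, so a promoter without them, such as that of H2-Aa, may still hold an X box. An X core followed by a Y box after 10 to 35 bases was found in H2-DMb2, H2-DMb1, H2-Ob and H2-Eb1, with gaps of 23, 23, 20 and 22 bases, and in 72 of all promoters (0.219%), these 4 included. The H2-DMb1 and H2-DMb2 stretches were identical at 51 of 60 bases. H2-DMa has 2 start sites in the table, and its Y box lies 198 bases before the second.

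**Figure D1:**
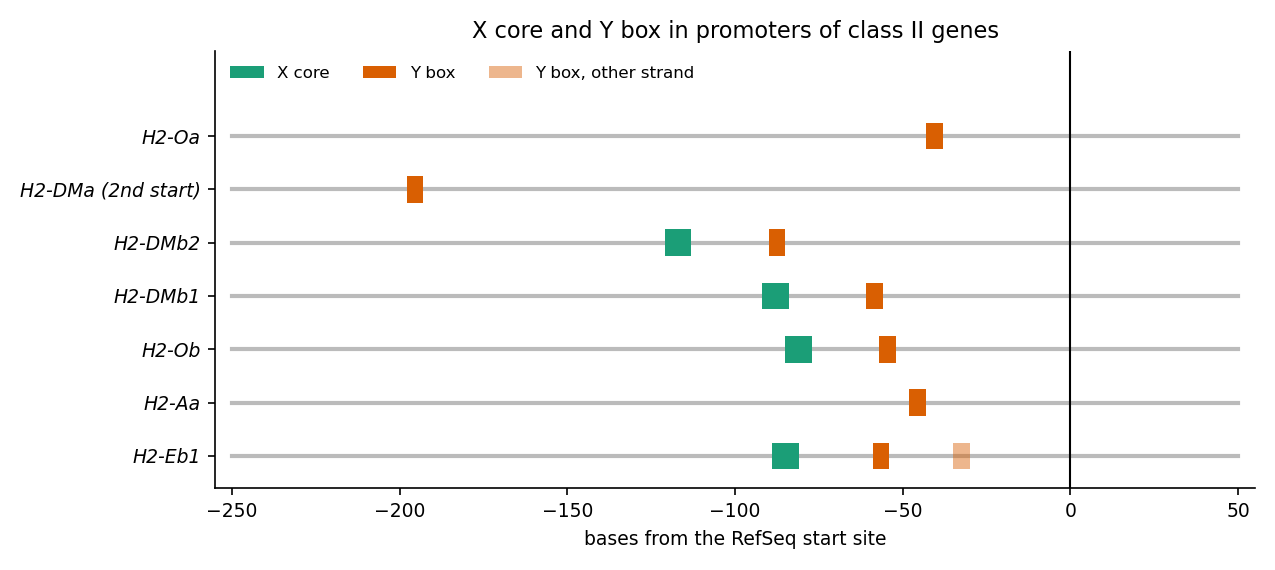
Positions of the X core and the Y box in promoters of 7 members, in bases from the RefSeq start site (vertical line). Green bars are the X core, orange bars the Y box on the strand of the gene and pale bars the Y box on the other strand. In 4 genes a Y box follows the X core by 20 to 23 bases.

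Together the 10 members held 1332 CPM in pro-B, 819 CPM in pre-B, 5167 CPM in immature B and 17376 CPM in mature B cells. These levels were 0.133% (95% exact Poisson interval 0.126% to 0.141%), 0.0819% (0.0710% to 0.0943%), 0.517% (0.487% to 0.547%) and 1.74% (1.71% to 1.77%) of the mRNA counts. Against the pro-B library the pre-B sum was 1.62-fold lower (interval 1.40 to 1.90), then 6.30-fold higher in immature B than in pre-B cells (5.41 to 7.37) and 3.36-fold higher in mature B than in immature B cells (3.17 to 3.57). Between pro-B and mature B cells it was 13.0-fold higher (12.3 to 13.9). Most low counts were even, as if both reads of a pair had been counted, and with halved counts the last interval was 11.98 to 14.2. In a bulk library, fewer cells carrying a transcript and less transcript per cell cannot be told apart.

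**Figure D2:**
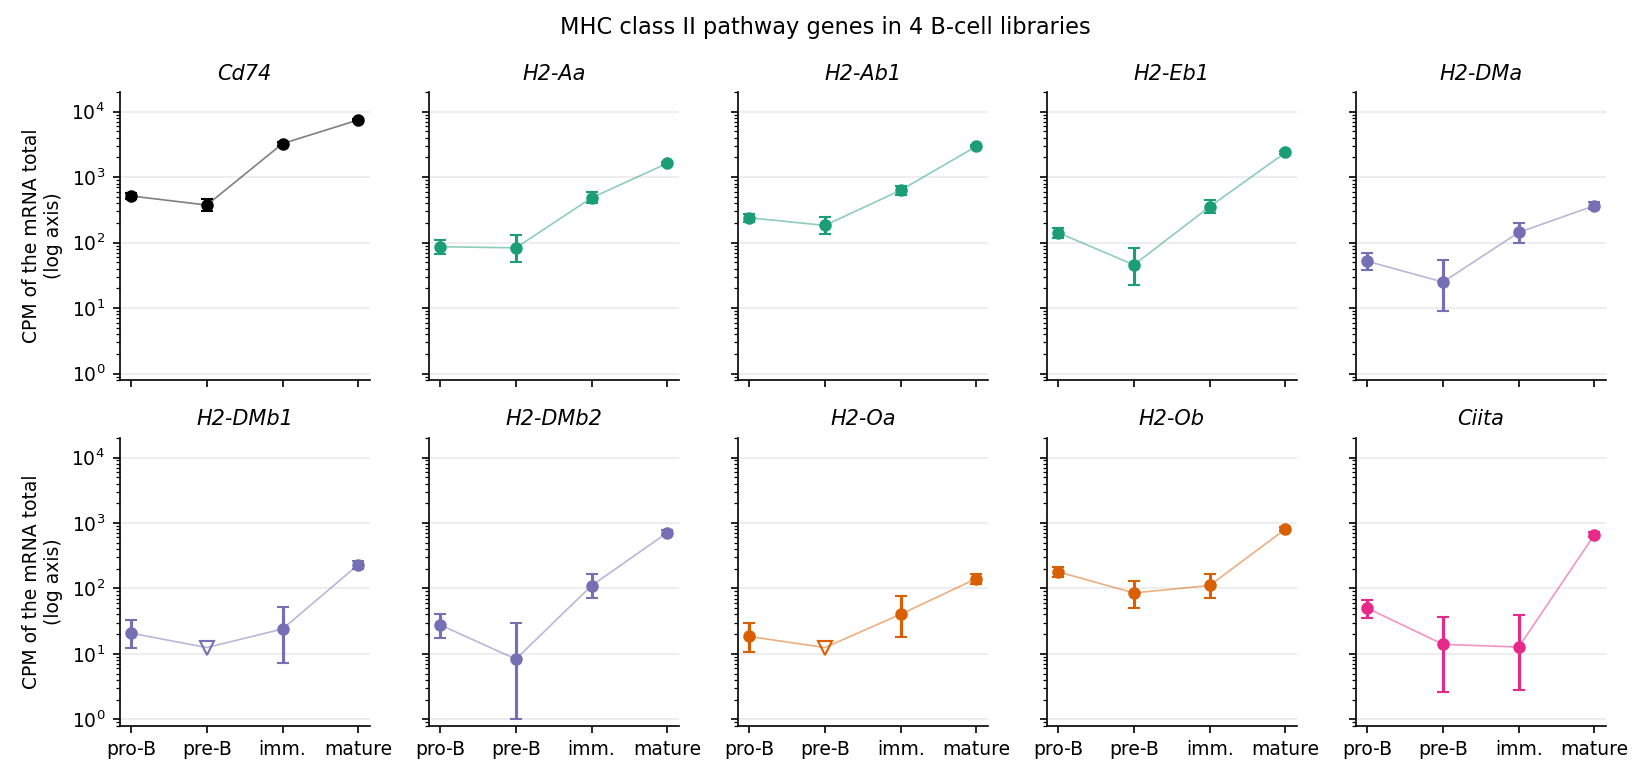
Level of each member in the 4 libraries, in CPM of the mRNA total on a log axis, with exact 95% Poisson intervals for counting error. Open triangles mark a count of 0, drawn at the level of 3 counts, 12.5 CPM in pre-B cells. Every gene is highest in the mature B library, and Cd74 is the highest of the 10 there at 7482 CPM.

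Cd74, the invariant chain, was the member with the most counts in each library. It was measured at 448, 90, 728 and 6355 counts, or 516 CPM in pro-B, 375 CPM in pre-B, 3257 CPM in immature B and 7482 CPM in mature B cells. Among all genes of a library it ranked 226th and 351st in the first 2 stages, 20th in immature B cells and 3rd in mature B cells by CPM. Its level was 8.70-fold higher in immature B than in pre-B cells (6.98 to 10.9), and 98.8% of the genes tested there had a lower ratio. From immature B to mature B cells its CPM was 2.30-fold higher (2.13 to 2.48), the smallest ratio of the 10. Its share of the members' counts was 38.8% in pro-B, 45.7% in pre-B, 63.0% in immature B and 43.1% in mature B cells.

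The classical chains followed. H2-Aa, the α chain of I-A, was measured at 86.6, 83.3, 484 and 1627 CPM from pro-B to mature B. H2-Ab1, its β chain, was measured at 240, 183, 631 and 2962 CPM, and H2-Eb1, the β chain of I-E, at 142, 45.8, 353 and 2382 CPM. All 3 were highest in mature B cells, with 1382, 2516 and 2023 counts there, and H2-Eb1 had only 11 counts in pre-B cells.

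Between pro-B and mature B cells the CPM of H2-Aa was 18.8-fold higher (14.9 to 24.1). The ratio was 12.4 for H2-Ab1 (10.7 to 14.3) and 16.8 for H2-Eb1 (14.0 to 20.3). For H2-Aa the pre-B and pro-B levels did not differ beyond counting error, with a ratio of 0.963 (0.557 to 1.59). H2-Eb1, in contrast, was 3.10-fold lower in pre-B cells (1.67 to 6.36). The usual partner chain of I-E is H2-Ea, whose promoter is deleted in C57BL/6 mice, and the gene had 0, 0, 2 and 14 counts.

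The genes of H2-M, the peptide exchange factor, were lower. H2-DMa, the α chain, was measured at 51.9, 24.98, 143 and 367 CPM. H2-DMb1 had 20.7 CPM in pro-B, 0 counts in pre-B (Poisson upper limit 15.4 CPM), 24.0 CPM in immature B and 231 CPM in mature B cells. H2-DMb2 had 27.7, 8.33, 110 and 712 CPM. In mature B cells H2-DMb2 was thus the most abundant by CPM of the 3, with 605 counts against 312 of H2-DMa and 196 of H2-DMb1.

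The β chains come from neighbouring genes with similar sequence, so the authors' counting could divide reads between them and each value is uncertain. On the length-scaled FPKM values the ratio of H2-DMb2 over H2-DMb1 was 1.04 in pro-B cells (0.538 to 2.02), and the mature B library gave 2.50 (2.12 to 2.95). In immature B cells it was 4.51 (1.84 to 16.4), from 25 and 5 counts. Between pro-B and mature B cells the CPM of H2-DMb2 was 25.8-fold higher (17.1 to 40.5), the largest ratio of the members, that of H2-DMb1 11.1-fold higher (6.86 to 19.2) and that of H2-DMa 7.08-fold higher (5.17 to 9.91).

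H2-O, the modulator of H2-M, differed between its chains. H2-Oa, the α chain, had 18.4 CPM in pro-B, 0 counts in pre-B, 40.3 CPM in immature B and 141 CPM in mature B cells. H2-Ob, the β chain, had 179, 85.3, 111 and 808 CPM. H2-Ob therefore had the smallest ratio of the members between pro-B and mature B cells, 4.52 (3.79 to 5.42), beside 7.66 for H2-Oa (4.53 to 13.8). From pre-B to immature B cells H2-Ob was 1.34-fold higher with an interval that includes 1 (0.717 to 2.55), and it was the only member with at least 10 counts in those libraries that did not reach 2-fold. From immature B to mature B cells it was 7.22-fold higher (4.85 to 11.2).

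Ciita, the transactivator, had 43.4, 3.36, 2.84 and 563 estimated counts, or 49.96, 14.0, 12.7 and 663 CPM. The pre-B and immature B counts were both at the 3 counts that set the detection limit, and no ratio is given between them. Ratios are taken on the rounded counts of 43, 3, 3 and 563. Against pro-B cells the pre-B level was 3.97-fold lower, with an interval of 1.27 to 19.99, which with halved counts took in no change (0.748 to 26.7). Relative to genes of similar length the log2 ratio was -1.18 in place of -1.99. From immature B to mature B cells it was 49.4-fold higher (16.8 to 240, or 13.2 to 2941 with halved counts), the 5th highest ratio of 9002 genes tested, with a log2 ratio of 5.63, or 4.97 relative to genes of similar length, and between pro-B and mature B cells 13.4-fold higher (9.80 to 18.7). In immature B cells, where Cd74 was among the 20 genes of highest CPM, Ciita was thus near the detection limit.

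The ratio of Cd74 over Ciita within a library does not depend on the library total, but it carries the dependence on transcript length described below, since Cd74 is in the shortest and Ciita in the longest of 5 length classes. On FPKM it was 30.1 in pro-B (22.2 to 42.6), 104 in pre-B (38.8 to 578), 806 in immature B (260 to 3710) and, in the mature B library, 42.4 (38.9 to 46.3). The immature B interval did not overlap those of the pro-B and mature B libraries. The ratio of Cd74 over H2-Ab1 was also highest in immature B cells, at 3.58 (2.98 to 4.32) beside 1.64 (1.39 to 1.94), 1.38 (0.953 to 2.03) and 1.85 (1.77 to 1.94) in pro-B, pre-B and mature B cells.

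**Figure D3:**
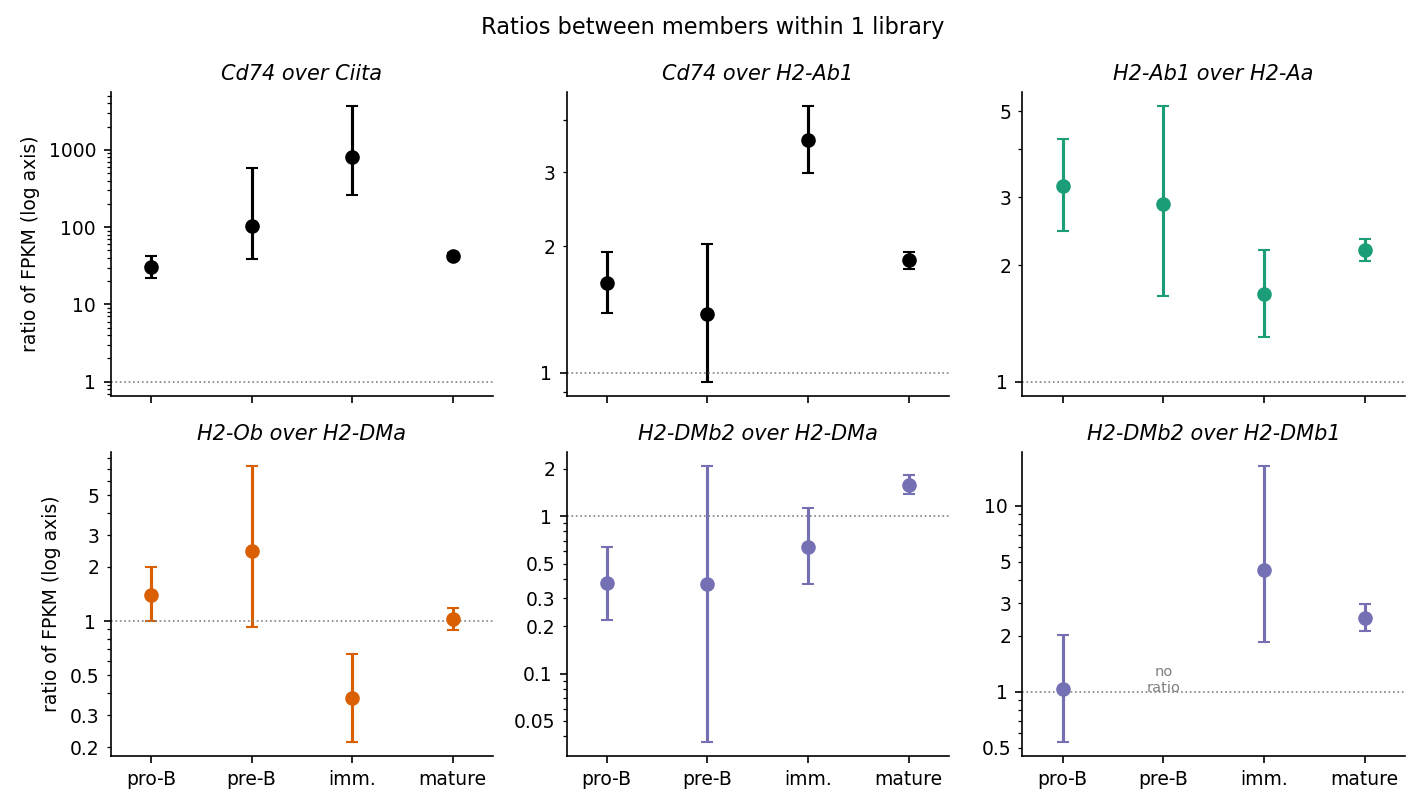
Ratios of FPKM between members within each library, on log axes, with 95% intervals for counting error. The ratio of Cd74 over Ciita peaks at 806 in immature B cells, while that of H2-Ob, the β chain of H2-O, over H2-DMa is lowest there at 0.374.

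Other ratios moved as well. H2-Ob over H2-DMa, a length-scaled ratio of modulator to exchange factor, was 1.40 in pro-B (0.997 to 1.99), 2.45 in pre-B (0.925 to 7.27), 0.374 in immature B (0.214 to 0.657) and 1.03 in mature B cells (0.900 to 1.18). H2-DMb2 over H2-DMa was 0.378 (0.220 to 0.634) in pro-B and 1.58 (1.38 to 1.82) in mature B cells. H2-Ab1 over H2-Aa, the β and α chains of I-A, lay between 1.68 and 3.20 in the 4 libraries.

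On FPKM, which allows levels of different genes to be compared, mature B cells held Cd74 at 973, H2-Ab1 at 525, H2-Eb1 at 290 and H2-Aa at 240. The other members followed at 80.3 for H2-DMb2, 52.3 for H2-Ob, 50.7 for H2-DMa, 32.2 for H2-DMb1, 23.0 for Ciita and 20.9 for H2-Oa. H2-Ob and H2-DMa did not differ there beyond counting error. In immature B cells the order of FPKM was Cd74 at 113, H2-Ab1 at 31.5, H2-Aa at 18.7, H2-Eb1 at 11.1, H2-DMa at 5.14 and H2-DMb2 at 3.29. H2-Ob at 1.92, H2-Oa at 1.57, H2-DMb1 at 0.73 and Ciita at 0.14 came last.

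Read against all genes, the members moved as follows. In pre-B against pro-B cells 5 of the 10 were at least 2-fold lower (H2-Eb1, H2-DMa, H2-DMb2, H2-Ob and Ciita) and none was higher, where 29.6% of 9728 genes were lower and 17.9% higher. The ratios of H2-DMa (2.08-fold lower, 0.883 to 5.95) and H2-DMb2 (3.32-fold lower, 0.825 to 29.0, from 2 counts) had intervals that include no change, and that of H2-Ob was 2.15 (1.34 to 3.61). The count was 3 with DESeq2 size factors, 10 with the authors' FPKM, and 0 where the interval had to lie wholly past 2-fold or with edgeR's exact test at a dispersion of 0.16. The median log2 ratio of the members was -0.89 and that of all genes -0.34. H2-DMb1 and H2-Oa, with 0 counts in pre-B cells, were at least 1.66-fold and at least 1.48-fold lower against 3 counts. Their counting intervals allowed as little as 1.22-fold and 1.07-fold, and with halved counts they included no change.

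From pre-B to immature B cells 6 of the 7 members with at least 10 counts were at least 2-fold higher, against 18.4% of 7013 genes, and none was lower, against 18.9%. Beside Cd74 these were H2-DMb2 at a ratio of 13.4 from 2 counts in pre-B cells (3.35 to 117), H2-Eb1 at 7.72 (4.09 to 16.1), H2-Aa at 5.80 (3.58 to 9.88), H2-DMa at 5.73 (2.36 to 16.8) and H2-Ab1 at 3.44 (2.44 to 4.95). The median log2 ratio of the 7 was 2.54 and that of all genes -0.01. H2-DMb1, H2-Oa and Ciita had fewer than 10 counts in these libraries together.

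From immature B to mature B cells 10 of 10 members were at least 2-fold higher, against 24.8% of 9002 genes, and none was lower, against 21.6%. Ciita at 49.4 and H2-DMb1 at 10.3 (4.35 to 32.1) had the highest ratios, ahead of H2-Ob at 7.22, H2-Eb1 at 6.74 and H2-DMb2 at 6.37. Cd74 at 2.30, H2-DMa at 2.57 (1.78 to 3.82), H2-Aa at 3.37 and H2-Oa at 3.51 (1.79 to 7.86) had the lowest, and the intervals of H2-DMa and H2-Oa reached below 2. The median log2 ratio was 2.45 for the members and 0.16 for all genes. Between pro-B and mature B cells the count was again 10 of 10, against 13.3% of 10327 genes higher and 23.6% lower, and the medians were 3.68 and -0.18.

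**Figure D4:**
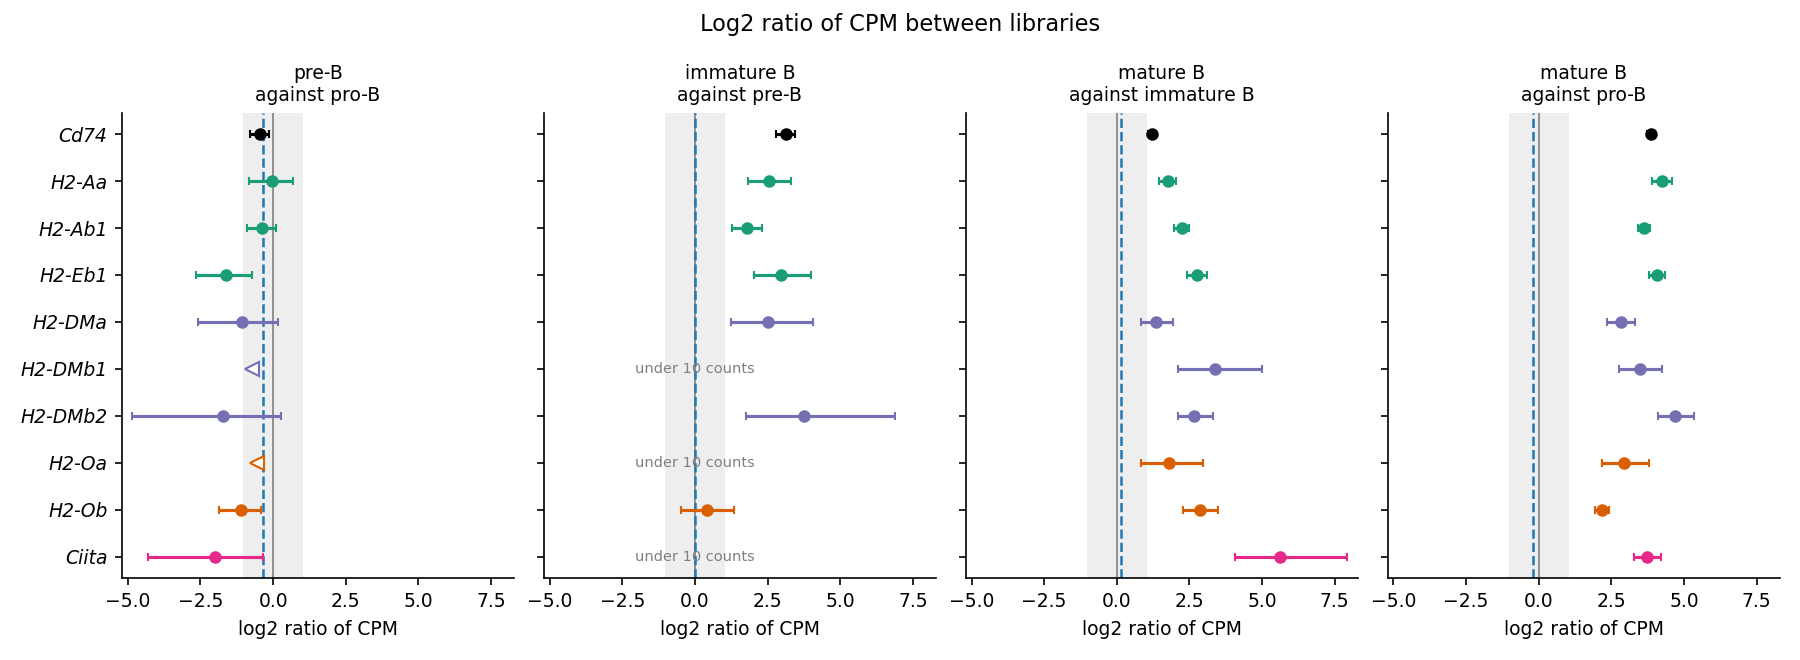
Log2 ratio of CPM for each member in the 4 comparisons, with 95% intervals for counting error. Grey bands mark less than 2-fold, dashed lines the median of all genes, and open triangles a count of 0 set to 3 counts. In mature B cells all 10 members lie above the band, with medians of 2.45 against immature B and 3.68 against pro-B cells.

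The libraries differed in how ratios depended on transcript length. Genes with at least 10 counts and a minimum FPKM in mature B cells were put in 5 equal classes by the length that their counts and FPKM imply. This left 7625 of 9728 tested genes in pre-B against pro-B cells and 8066 of 9002 in mature B against immature B cells. In the latter, genes low in mature B cells were thus left out, which can shift the medians. In pre-B against pro-B cells the median log2 ratio of the classed genes was 0.02 in the shortest class and -0.81 in the longest. In mature B against immature B cells it was -0.09 in the shortest and 0.66 in the longest. Ciita lies in the longest class, H2-Ob in the middle class, H2-DMb2 in the class next to the shortest and the other members in the shortest. Taken relative to their own class, 4 members were lower in pre-B cells in place of 5, H2-Ob dropping out with a log2 ratio of -0.63, and 10 of 10 were still higher in mature B than in immature B cells.

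**Figure D5:**
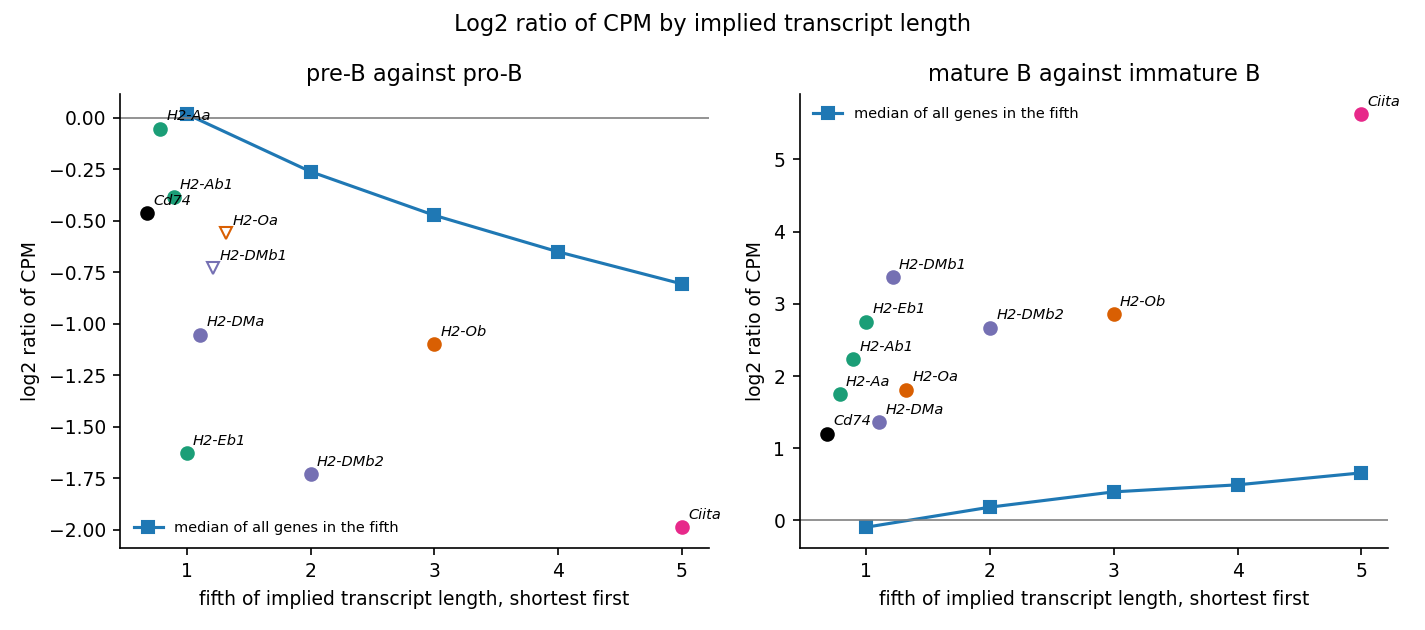
Log2 ratio of CPM by class of implied transcript length, in 5 equal classes from the shortest, in 2 comparisons. Squares are the median of the genes in a class, which hold only genes with at least 10 counts and a minimum FPKM in mature B cells. Circles are members and open triangles members with 0 counts in pre-B cells. The class median falls from 0.02 to -0.81 in the left panel and rises from -0.09 to 0.66 in the right panel.

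Pro-B cells also held markers of other cells, which moved with the members in part. The summed level of 8 plasmacytoid dendritic cell markers was 372 CPM in pro-B, 58.3 CPM in pre-B, 134 CPM in immature B and 80.3 CPM in mature B cells, and none of the 8 was at 0 in pro-B while 7 were in pre-B cells. The pre-B library held fewer counts, and some of the 8 were near 0 in pro-B cells too, such as Cd300c at 2 counts and Cd209d at 4. Of the 5 that were tested, 3 were at least 2-fold lower in pre-B against pro-B cells, beside 29.6% of all genes. Siglech, a plasmacytoid dendritic cell marker, had 105, 0, 4 and 0 counts. The 10 monocyte and macrophage markers summed to 1042, 475, 324 and 338 CPM, with Csf1r and Cd14 at 0 in every library and Mpeg1 alone at 554 CPM in pro-B cells. The 7 conventional dendritic cell markers summed to 108, 112, 62.6 and 11.8 CPM, with Batf3 at 0 throughout. In mature B cells these 3 sums were lower than in pro-B cells, and Lyz2 held 246 of the 338 CPM of the monocyte and macrophage markers. The 8 neutrophil and progenitor markers summed to 1229, 1432, 1168 and 978 CPM, and the 6 T and NK markers to 205, 0, 0 and 5.89 CPM. The part of such cells in the levels of the members was not tested in any library.

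Of 7 genes for factors that bind class II promoters, none was at least 2-fold higher in the mature B library than in the pro-B library, against 13.3% of all genes, and 1 was lower, against 23.6%. Rfxap, a subunit of RFX, went from 43.8 to 16.5 CPM. The other subunits were at 62.2 and 118 CPM for Rfx5 and at 40.1 and 37.9 CPM for Rfxank. Nfya, Nfyb and Nfyc of NF-Y were at 24.2 and 29.5, 86.4 and 49.4, and 69.1 and 89.5 CPM, and Creb1 at 190 and 192 CPM. Between these ends some levels differed. Rfxank had 106 CPM in pre-B and 219 CPM in immature B cells and was 5.82-fold lower in mature B than in immature B cells (3.65 to 9.39). Nfyb was 4.43-fold lower in that step (2.88 to 6.86), and Creb1 was 2.54-fold lower in pre-B cells against pro-B cells (1.56 to 4.39).

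Of 9 tested regulators of Ciita none was called in either direction between the pro-B and mature B libraries, beside 13.3% of all genes higher and 23.6% lower. Pax5 had 1187 and 1958 CPM, Spi1 41.5 and 71.8 CPM, Irf4 354 and 499 CPM and Irf8 902 and 631 CPM. Ebf1 had 1180 and 771 CPM, Irf1 294 and 180 CPM and Bach2 883 and 918 CPM. In the steps between, Irf4 was 2.48-fold higher in mature B against immature B cells (1.82 to 3.45), and Irf8 was 3.67-fold lower in pre-B against pro-B cells (2.82 to 4.87) and 2.40-fold higher in immature B against pre-B cells (1.76 to 3.33). Spi1 was 2.11-fold higher in pre-B against pro-B cells (1.17 to 3.71). Prdm1, the plasma cell factor that represses Ciita, had 9 counts in pro-B, 0 in pre-B, 6 in immature B and 7 in mature B cells. Its CPM was 3.26-fold lower in mature B against immature B cells, with an interval that includes no change (0.904 to 11.3). Zbtb32 had 2 counts in pre-B cells and 0 elsewhere.

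Other genes of antigen presentation differed by group. Of 8 tested genes of endosomal processing 3 were higher and 2 lower in mature B than in pro-B cells, beside 13.3% and 23.6% of all genes, so that the share of lower genes was near that of all genes. Ctss, the protease that trims the invariant chain, went from 126 to 279 CPM, Ctsh from 56.5 to 160 CPM and Ctsz from 0 to 33.9 counts (at least 11.6-fold higher against 3 counts, with an interval from 8.92), while Ctsb went from 356 to 80.1 CPM and Ctsl from 66.8 to 33.0 CPM. Of 6 tested genes of class II turnover and partners 1 was higher and 1 lower, shares near the 13.3% and 23.6% of all genes. The higher was Cd83, which stabilises surface class II, from 40.3 to 952 CPM (23.6-fold, 16.8 to 34.2). The lower was Cd44, from 290 to 130 CPM.

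All 4 tested genes of co-stimulatory or inhibitory surface molecules were higher in mature B than in pro-B cells, beside 13.3% of all genes. Cd80, with 4 and 3 counts, and Pdcd1lg2, with 6 and 2 counts, had too few to be tested. Icosl went from 5.76 to 137 CPM, Cd86 from 17.6 to 111 CPM, Cd274 from 44.5 to 206 CPM and Cd40 from 11.52 to 48.3 CPM. Of 8 tested class I genes none was called between pro-B and mature B cells, beside 13.3% of all genes higher and 23.6% lower. H2-K1 was at 1180 and 1510 CPM and B2m at 804 and 710 CPM. In the steps between, Tap2 was 16.6-fold lower in pre-B against pro-B cells (2.87 to 667, from 1 count) and higher again in both later steps. Nlrc5 was 4.30-fold lower in immature B against pre-B cells (1.97 to 10.7) and 5.23-fold higher in mature B against immature B cells (2.59 to 12.3). The class II gene H2-Eb2 had 7, 0, 2 and 199 counts, and its CPM was 29.1-fold higher in mature B than in pro-B cells (13.8 to 73.2). Of 50 tested genes of the KEGG antigen processing and presentation pathway with the members left out, 4 were higher (H2-Eb2, Psme2b, H2-Ea and Ctss) and 13 lower, beside 13.3% and 23.6% of all genes.

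The 5 genes whose pattern was most like the median pattern of the members, of 6932 searched over the 4 libraries, were Lat2, Sorl1, Bank1, Cd22 and Zfp318. Likeness was the sum of absolute differences in log2(CPM + 1) after centring, and it was 1.12, 1.12, 1.17, 1.29 and 1.36 for these genes. Among the members it ranged from 1.02 for H2-DMa to 4.39 for H2-DMb1, with Ciita at 4.35. Cd22, an inhibitory co-receptor of the B-cell receptor, had 95.6, 41.6, 380 and 1063 CPM, and Bank1, a B-cell scaffold protein, had 49.5, 41.6, 215 and 1325 CPM.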

How the data were processed

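The RNA tables of 4 sorted B-cell populations were used, each population having 1 rRNA-depleted, strand-specific library from the pooled cells of 3 mice. The authors used fastp 0.18.0 for cleaning, Bowtie2 2.2.8 against rRNA, HISAT2 2.1.0 for mapping and StringTie 1.3.4 for quantification. The estimated counts of mRNAs and lncRNAs are as deposited by the authors, not normalized and not all whole. The FPKM values deposited by the authors are scaled by transcript length and mapped fragments. The circRNA counts that the authors deposited are back-spliced reads. The submitters' notes list mm9 and Bowtie 0.12.2 without a role. Of 945 circRNAs matched by symbol to a gene of GRCm38.p6, 931 (98.5%) overlapped it, and coordinates are given in that build.

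Levels are estimated counts divided by the total of the mRNA column (CPM), and ratios and intervals use counts rounded to whole numbers. Adjacent stages, and mature B against pro-B, were compared by the ratio of CPM with an exact conditional binomial 95% interval. A gene needed 10 counts in the 2 libraries together and was called at a ratio of at least 2 in either direction, with 0 set to 3 counts. Levels carry exact Poisson intervals. These intervals cover counting error only and treat each count as independent. Reads carried no molecular identifiers, so the intervals may be too narrow even for counting error. With 1 library per stage there is no spread between replicates, so no p-value is given.

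In each library, 76.0% to 79.0% of the whole counts up to 20 were even, as if both reads of a pair had been counted. Ratios with halved counts were therefore added after the data were seen, as were ratios relative to genes of similar implied length (estimated count over FPKM in mature B). Length was implied only for genes with at least 10 counts and a minimum FPKM in mature B. Alternatives were TMM factors of edgeR 4.0.16, size factors of DESeq2 1.42.0, other totals, the authors' FPKM, other minimums and folds, and edgeR's exact test at fixed dispersions. The ratio calculation was tested on simulated data. Intervals were computed with scipy 1.17.1 on tables handled in pandas 2.3.3 (Python 3.11.15), and R 4.3.3 ran the scalings.

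Members and gene lists were chosen with earlier results of these data known. All 10 members are named. Other lists are given by their counts and by up to 4 genes per direction past 2-fold from pro-B to mature B, with the factors binding class II promoters or regulating Ciita named, except 1 that is not reported here. The 5 genes most like the members were taken among those with at least 50 counts. Genes of cell-type marker lists named individually were chosen after their values were seen. The small RNA table was not used. Promoter sequences are those of RefSeq, GRCm38.p6.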

Additional observations from a re-analysis of the deposited data

Results flagged for a closer look

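Signals of the members also appeared outside the mRNA table. In the lncRNA table, transcripts listed under member symbols reached more than 3 estimated counts. In mature B cells the H2-Aa transcript had 44.26 counts, the H2-DMb1 transcript 35.71, the H2-Ab1 transcript 18.99, the Ciita transcript 18.95 and the H2-Ob transcripts 16.87 and 9.34. In pre-B cells only the H2-Ab1 and Ciita transcripts were above 0, at 5.59 and 1.43 counts. These transcripts overlap coding genes, and how the authors' estimates divided reads between them was not tested.

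In the circRNA table, novel_circ_000803 is listed as antisense to H2-Ab1 at chr17:34267655-34268557 on the minus strand. It had 4 back-spliced reads in mature B cells, of 1531 in that library, and 0 in the other 3 libraries.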

How the results depend on the processing

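The count of members at least 2-fold lower in pre-B against pro-B cells, 5 of 10, was the one that moved. It was 3 with DESeq2 size factors, 10 with the authors' FPKM, 3 of 6 tested with a minimum of 50 counts, 3 with edgeR's exact test at a dispersion of 1e-04 and 0 at a dispersion of 0.16. It was 0 where the 95% interval had to lie wholly past 2-fold, with counts as deposited and with counts halved. The counts of the other comparisons stayed within 1.5 times under every alternative run. Of the members' log2 ratios 166 values stayed within the counting interval, and 17 moved. No called ratio reversed, and the uncalled ratio of H2-Aa in pre-B against pro-B cells went from -0.05 to 0.12 with DESeq2 size factors. With halved counts the intervals lay wholly past 2-fold for 4 of 7 members from pre-B to immature B, 8 of 10 from immature B to mature B and 10 of 10 from pro-B to mature B cells.

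The FPKM values put 3.004% of all genes higher and 78.3% lower in pre-B against pro-B cells, beside 17.9% and 29.6% by CPM, and 73.6% higher and 3.77% lower in mature B against immature B cells, beside 24.8% and 21.6%. The all-gene median log2 ratio was then -2.09 and 1.89, and that of the members -3.14 and 4.33. Relative to genes of similar length the split was 21.0% and 19.5% in pre-B against pro-B cells. In mature B against pro-B cells it was 15.6% and 12.3%, beside 13.3% and 23.6%. The length classes left out genes low in mature B cells, so these shares rest on 7625 and 8066 genes, not 9728 and 10327. In mature B against pro-B cells 11.2% to 14.0% of the genes in a class were lower before any length adjustment. Immature B and pro-B cells were not compared by ratio, and their order depends on the scale. By FPKM Cd74, H2-Aa and H2-DMb2 were higher in immature B than in pro-B cells, and the other members were lower. H2-Ab1, for example, had an FPKM of 31.5 in immature B and 40.8 in pro-B cells, but 631 and 240 CPM. No paired analysis was possible because each stage had 1 library. Depth limits H2-DMb1, H2-Oa and Ciita in pre-B and immature B cells most.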
